A study of Mus musculus with 48 samples.

Results

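The genes described here are 10 feedback regulators and outputs of the Ras-ERK pathway, Spry1, Spry2, Spry4, Spred1, Spred2, Dusp4, Dusp5, Dusp6, Phlda1 and Etv5, taken by symbol from the 24421 gene entries of the mouse RNA-seq tables. All 10 were listed in every table. They were chosen by their role and by measured values of these data, namely the level of Spry2 in Gq-CNO against Gq-Saline astrocytes of the olfactory bulb, so that contrast is described without a test.

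The study, titled for the transporter gene Slc22a3 in astrocytes and sensory processing, sequenced cells sorted from mouse olfactory bulb, cortex and hippocampus in 48 libraries, 3 for each of 16 groups. In Aldh1l1-GFP mice, in which an astrocyte promoter drives GFP, GFP astrocytes and mCh neurons were sorted from each of the 3 regions after Gq-CNO or Gq-Saline. CNO, clozapine N-oxide, is a ligand used to activate engineered Gq-coupled receptors, and the labels do not name the promoter that drove the Gq construct. GFP astrocytes of the olfactory bulb were also sorted from CNO-control and untreated Aldh1l1-GFP mice. The last pair of groups, mCh astrocytes of the olfactory bulb, came from Slc22a3-FF mice (the floxed allele in both groups), 1 group given Gfap-Cre, which the titles call Slc22a3-cKO, and the other Gfap-mCh as its control. The labels give no age or sex of the animals and do not say whether replicates were separate animals, so p-values measure only the spread between these libraries.

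Libraries held 228048 to 24664376 reads in genes. A list of 12 astrocyte markers summed to 48352 to 127845 reads per 1000000 (RPM) in the 24 GFP libraries. In the 18 mCh libraries labelled neurons, 10 neuron markers summed to 1616 to 4772 RPM, against 18277 to 60108 RPM for 8 oligodendrocyte markers and 4985 to 15638 RPM for 12 microglial markers, so these are called mCh sorts below. The 6 floxed libraries labelled astrocytes had 1446 to 12189 RPM of astrocyte markers and 5104 to 12721 RPM of microglial markers. Malat1, a nuclear RNA, stood at 16524 to 57279 RPM in the CNO-control and floxed libraries and at 544 to 10250 RPM in the other 39. In each region and sort, the Gq-Saline library numbered 1 had 0 to 0.653 RPM of the Y-linked Ddx3y, against 35.1 to 134 RPM in all 18 Gq-CNO libraries, and the hippocampal GFP Gq-Saline library numbered 4 had 0. The part that marker content, Malat1 and Ddx3y play in the comparisons below was not tested.

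Growth factors bind receptor tyrosine kinases, which switch on Ras and, through Raf and MEK, the kinase ERK. ERK signalling induces its own brakes: Sprouty proteins act between receptor and Raf, Spred proteins bring the Ras-inactivating protein neurofibromin to the membrane, and dual-specificity phosphatases of the Dusp family take the phosphates off ERK. Because their transcripts are induced by the pathway, these genes are widely used as readouts of ERK activity. In astrocytes, fibroblast growth factor and epidermal growth factor receptors are well-known inputs. In a bulk sample, fewer cells of a type and less RNA per cell cannot be told apart.

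Promoter windows, the 250 bases before the start site, were searched for 7 of the 10 genes, from RefSeq on GRCm38.p6, the build behind mm10. No window of Spry4, Dusp4 or Phlda1 was searched. The search covered 8 windows because Etv5 has 2. Of these, 3 are shown because they hold a match to a motif of a factor tied to ERK signalling. The motif set was chosen after expression values had been seen. Capitals mark the match, to a site of the repressor Capicua (CIC), which ERK inactivates, in Spry2 (chr14:105896820-105897069, minus strand) and Dusp6 (chr10:99262981-99263230, plus strand), and to 2 adjacent CArG boxes, the site of serum response factor, in Dusp5 (chr19:53528895-53529144, plus strand).
Spry2: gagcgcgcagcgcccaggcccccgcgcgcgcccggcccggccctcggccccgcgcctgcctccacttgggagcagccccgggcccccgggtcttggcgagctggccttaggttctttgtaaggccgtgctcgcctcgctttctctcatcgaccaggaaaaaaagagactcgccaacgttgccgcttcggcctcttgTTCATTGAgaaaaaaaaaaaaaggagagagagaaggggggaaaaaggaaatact
Dusp6: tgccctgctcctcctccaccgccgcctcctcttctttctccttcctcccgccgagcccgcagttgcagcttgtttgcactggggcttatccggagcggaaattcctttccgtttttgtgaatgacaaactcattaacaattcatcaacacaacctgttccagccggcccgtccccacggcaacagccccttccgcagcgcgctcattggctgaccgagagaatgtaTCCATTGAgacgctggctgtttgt
Dusp5: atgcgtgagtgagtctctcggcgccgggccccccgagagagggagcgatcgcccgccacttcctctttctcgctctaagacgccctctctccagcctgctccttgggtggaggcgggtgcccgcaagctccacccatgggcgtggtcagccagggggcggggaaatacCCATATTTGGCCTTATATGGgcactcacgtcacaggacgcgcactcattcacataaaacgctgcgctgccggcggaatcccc
The Capicua letters searched, on both strands, were TGAATGAA, TGAATGGA, TCAATGAA and TCAATGGA, which 3.19% of 32851 such windows of all genes hold. A CArG box stands in 1.47% of all windows. None of the 8 windows holds the cyclic AMP response element TGACGTCA (1.55% of all windows), the AP-1 letters TGANTCA (6.75%) or the ETS letters CCGGAA (12%). Both strands were searched for every motif, and none of the motifs contains another. A match describes letters in the window and is not a site shown to be bound.

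Levels of the 10 genes in GFP astrocytes spanned from no reads to 868 RPM. Divided by exon length (GENCODE vM21, mm10), the median level over the 24 GFP libraries was highest for the Ras brake Spred1, at 92.9 RPM per kb. Spry2 at 33.4, the second Spred gene, Spred2, at 28.8 and Etv5, an ETS transcription factor induced by growth factors, at 28.4 RPM per kb came next, and the Spry2 median includes the 3 libraries that the choice used. The order of these 3 genes by median was not the same in each region, which was not tested. In Gq-Saline libraries alone, their medians were 33.3 for Etv5, 17.5 for Spred2 and 17.4 RPM per kb for Spry2 in the olfactory bulb, 62 for Spred2, 35.6 for Spry2 and 29.2 RPM per kb for Etv5 in the cortex, and 40.1 for Spry2, 28.7 for Etv5 and 21.8 RPM per kb for Spred2 in the hippocampus. A second tier held the ERK phosphatase Dusp6 at 5.51, Spry4 at 5.18 and Phlda1, a pleckstrin-homology protein induced by growth factors, at 3.23 RPM per kb. Dusp4 and Spry1 stood at 0.488 and 0.331 RPM per kb, and Dusp5, a nuclear ERK phosphatase, was at 0 in 16 of the 24 libraries.

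**Figure D1:**
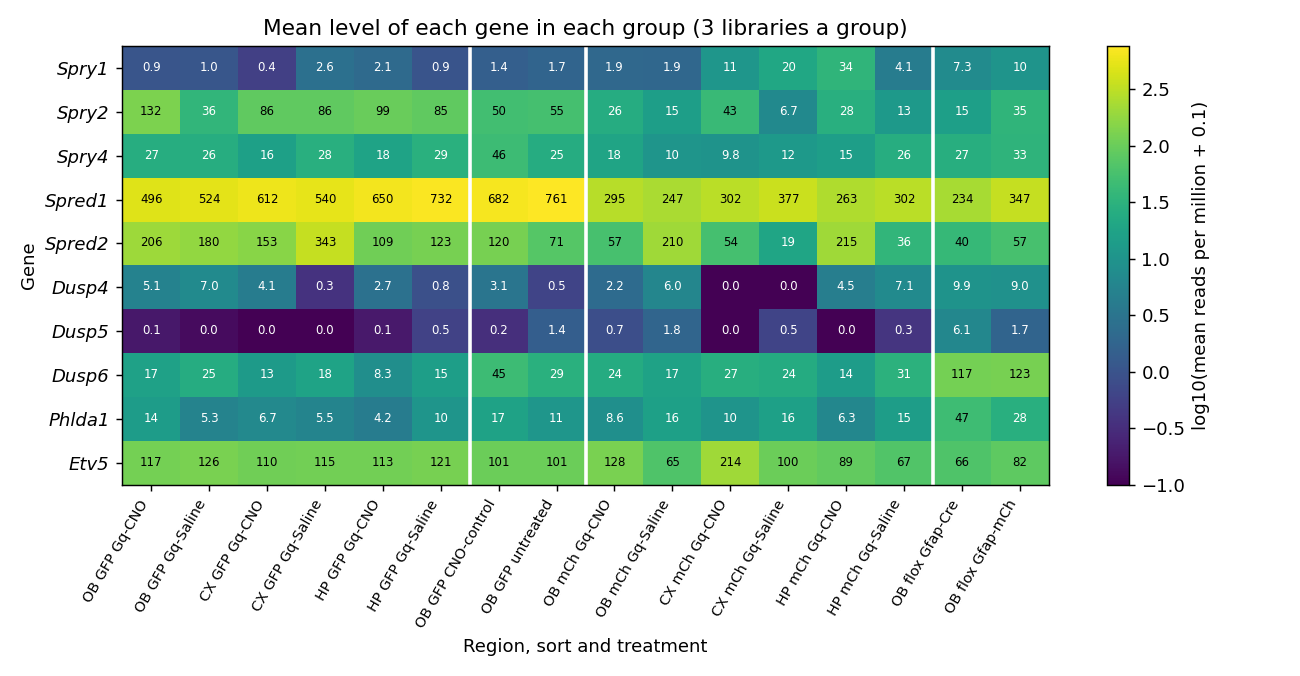
Mean level of each gene (rows) in each of the 16 groups of 3 libraries (columns), as log10 of mean RPM plus 0.1. Spred1 has the highest mean of the 10 genes in each group, and the Dusp4 and Dusp5 rows reach 0 in several groups, with their highest means, 9.89 and 6.11 RPM, in the Gfap-Cre group.

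When the 16 groups were ordered by mean RPM, most neighbours could not be separated. Counting a pair of neighbours as separated where the mean minus SD of the higher lay above the mean plus SD of the lower, 1 of 15 pairs was separated for Spry1, Dusp6 and Phlda1 each, and 0 of 15 for the other 7 genes. Spry2 was highest in Gq-CNO olfactory bulb astrocytes, at 131.9 ± 65.4 RPM (SD, n = 3), and lowest in the Gq-Saline cortical mCh sort, at 6.74 ± 5.12 RPM. The choice of genes used the Spry2 level of that highest group, so nothing is read from its rank. Dusp6 had its 2 highest groups in the floxed sorts, at 117 ± 49.6 RPM in Gfap-Cre and 123 ± 33.1 RPM in Gfap-mCh libraries, separated from the next group, CNO-control astrocytes, at 45.1 ± 11.2 RPM. Spry4 was highest in that CNO-control group, at 45.5 ± 8.55 RPM, and its order down to 9.85 ± 6.56 RPM in the Gq-CNO cortical mCh sort had no break.

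**Figure D2:**
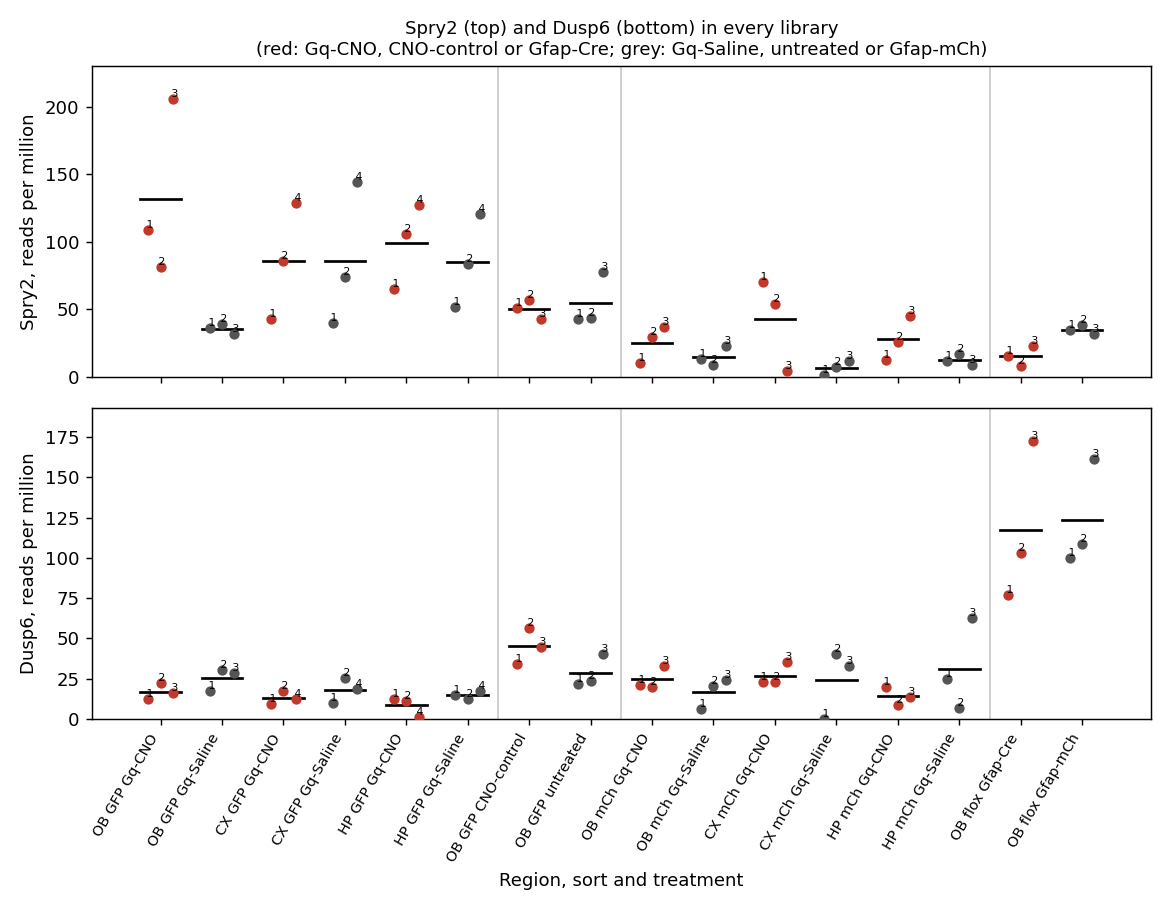
Spry2 (top) and Dusp6 (bottom) in RPM on linear axes, 1 point per library, by group. Spry2 points of the Gq-CNO olfactory bulb astrocytes (81.3 to 205.8 RPM) lie above those of Gq-Saline (31.8 to 39.2 RPM), and all 6 floxed libraries lie at 76.6 to 173 RPM for Dusp6, above every other library.

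GFP astrocytes and mCh sorts were then set side by side within each region, 6 libraries a sort. These sorts sit in separately normalised tables, so levels are given in RPM and no test was made. Spry2 had a median of 94.9 RPM in GFP and 14.8 RPM in mCh sorts of the hippocampus, 80 and 9.38 RPM in the cortex, and 60.2 and 18 RPM in the olfactory bulb. The olfactory bulb GFP median includes the 3 Gq-CNO libraries that the choice used, and was 36.2 RPM over the 3 Gq-Saline libraries. The hippocampal libraries did not overlap, and those of the other regions did. Spred1 had a median of 713 RPM in GFP and 273 RPM in mCh sorts of the hippocampus, 513 and 270 RPM in the olfactory bulb, both without overlap, and 625 and 318 RPM in the cortex, with overlap. Spred2 was apart in the cortex, with medians of 165 RPM in GFP and 27.7 RPM in mCh sorts. None of the 10 genes was higher in mCh than in GFP sorts without overlap. The share of all genes that separate between these sorts was not computed, so nothing is read from how many members did. Spry1, of the Sprouty genes among the 10 the lowest in astrocytes, had the higher median in mCh sorts in all 3 regions, 0.788 RPM in GFP and 1.51 RPM in mCh sorts of the olfactory bulb, 0.669 and 8.59 RPM in the cortex, and 1.39 and 5.02 RPM in the hippocampus, with overlap in each. Spry4 had medians of 26.8 RPM in GFP and 13.4 RPM in mCh sorts of the olfactory bulb, 20.7 and 9.16 RPM in the cortex, and 21.1 and 19.4 RPM in the hippocampus, with overlap in each. Dusp6, Phlda1 and Etv5 overlapped between sorts in every region, with ratios of GFP to mCh medians from 0.494 for Phlda1 in the cortex to 1.52 for Etv5 in the hippocampus.

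**Figure D3:**
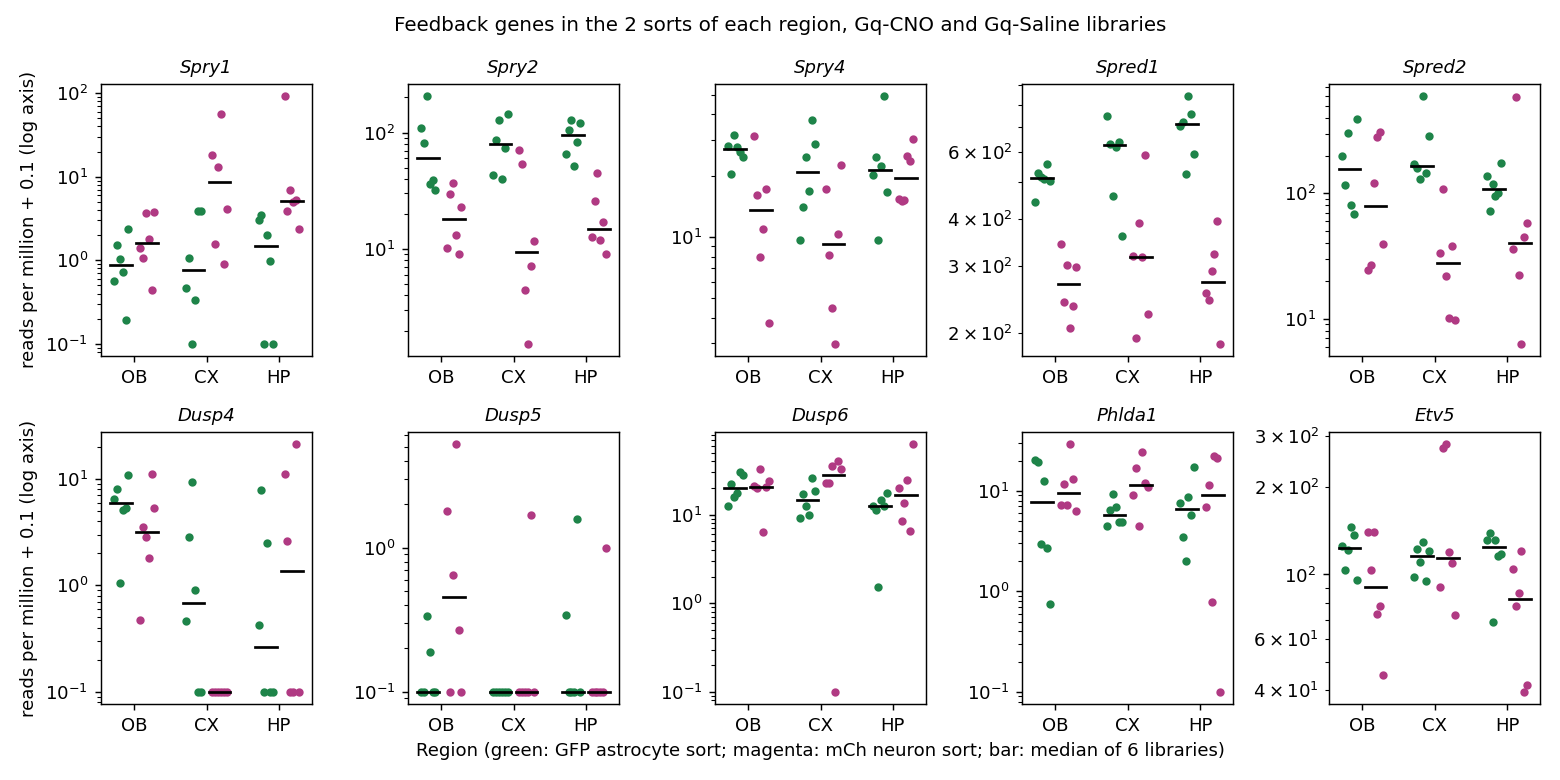
Levels in RPM plus 0.1 (log axis) of each gene in the olfactory bulb (OB), cortex (CX) and hippocampus (HP), with GFP astrocyte libraries in green, mCh libraries in magenta and a bar at the median of 6 libraries. Spry2, Spry4, Spred1, Spred2 and Etv5 have the higher median in GFP sorts in all 3 regions, and Spry1, Dusp6 and Phlda1 in mCh sorts, though the libraries overlap except for Spry2 in HP, Spred1 in OB and HP and Spred2 in CX.

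The first question of the design was whether Gq-CNO changed these transcripts against Gq-Saline. In olfactory bulb astrocytes, the contrast known when the genes were chosen, Spry2 had 895, 667 and 1627 normalised reads in Gq-CNO libraries and 281, 311 and 272 in Gq-Saline libraries, a ratio of means of 3.69. Its libraries did not overlap, which held for 9.88% of the genes there, and nothing is read from that count. The other 9 genes overlapped between the groups. Spry4, a Sprouty relative, had 231, 166 and 248 normalised reads in Gq-CNO and 214, 205 and 211 in Gq-Saline libraries. Dusp6 averaged 136 ± 39.9 in Gq-CNO and 205 ± 62 normalised reads in Gq-Saline libraries (SD, n = 3 each), Etv5 947 ± 92.4 and 1008 ± 166, and Spred1 4028 ± 345 and 4225 ± 248. Phlda1 had 164, 158 and 22.4 normalised reads in Gq-CNO and 97.1, 20.8 and 5.55 in Gq-Saline libraries.

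The same contrast in the other regions and sorts is not the one the choice used, and was tested. limma on log2(normalised reads + 1), with Benjamini-Hochberg adjustment over all tested genes and a threshold of 0.05, called 0 of 9978 genes in cortical astrocytes (percent called 0), as did edgeR and DESeq2, while 142 had a p under 0.05 before adjustment. In hippocampal astrocytes it called 0 of 11519 genes (234 with p under 0.05 before adjustment, and 5 called by DESeq2). In the mCh sorts it called 0 of 10492 genes in the olfactory bulb, 0 of 9392 in the cortex and 0 of 9808 in the hippocampus, with 556, 428 and 445 genes below 0.05 before adjustment. There DESeq2 called 2, 3 and 13 genes and edgeR 0. Between 7 and 8 of the 10 genes passed the filter on low values in these fits, Dusp4 and Dusp5 in none of them, and 0 of the 10 were called in any.

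Spry2 did not separate in either of the other astrocyte sorts. In the cortex it had 180, 333 and 605 normalised reads in Gq-CNO libraries and 156, 303 and 641 in Gq-Saline libraries, a log2 difference of 0.09 with a 95% interval from -1.27 to 1.44. In the hippocampus it had 609, 1038 and 1499 normalised reads in Gq-CNO and 509, 810 and 1378 in Gq-Saline libraries, a log2 difference of 0.24 (95% interval from -0.73 to 1.22, adjusted p = 0.982 by limma). These intervals leave room for differences of more than 1 log2 unit. The spread inside each group had 1 order: in all 4 of these groups the library numbered 1 was the lowest and the one numbered 4 the highest, a pattern noticed after the values were seen, which the olfactory bulb groups, numbered 1 to 3, did not share. The cortical Gq-CNO library numbered 4 held 325129 reads and 42 reads of Spry2, and without it the cortical log2 difference was -0.35. The cortical Gq-Saline library numbered 4 had 2731 RPM of microglial markers, against 86.6 and 96.3 RPM in the other libraries of its group, and without it the difference was 0.60. Leaving out the libraries numbered 1 gave 0.52 for Gq-CNO and -0.41 for Gq-Saline, so the sign rests on single libraries.

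In the mCh sorts the Spry2 log2 difference (Gq-CNO minus Gq-Saline) was 0.64 in the olfactory bulb (95% interval from -0.85 to 2.12). It was 2.20 in the cortex (-0.6 to 5.0) and 0.95 in the hippocampus (-0.73 to 2.63). Groups overlapped in each sort, and none of these differences was called. Over 13 alternatives a sort they stayed positive, at 0.25 to 1.19, 1.41 to 3.44 and 0.49 to 1.43. In the cortex, Gq-CNO replicate 3 and Gq-Saline replicate 1 held 1 read of Spry2 each. Separations of members were isolated in the tested Gq contrasts. Groups did not overlap for 0 of 7 members in cortical astrocytes, where 8.89% of all tested genes did not overlap, 1 of 8 in hippocampal astrocytes (8.85%), 1 of 7 in the olfactory bulb mCh sort (10.6%), 0 of 8 in the cortical mCh sort (9.64%) and 1 of 8 in the hippocampal mCh sort (9.48%). The gene in hippocampal astrocytes was Dusp6, at 116, 108 and 16.8 normalised reads in Gq-CNO and 143, 122 and 198 in Gq-Saline libraries, with 3 reads in the lowest library and a log2 difference of -1.32 ± 1.06 (SE). In the olfactory bulb mCh sort Etv5 had 335, 244 and 347 normalised reads in Gq-CNO and 178, 192 and 111 in Gq-Saline libraries. Its log2 difference was 0.96, higher in every Gq-CNO library, with a limma p of 0.0176 that gave an adjusted p of 0.9. Spry4 in the hippocampal mCh sort had 36.2, 34.7 and 37.8 normalised reads in Gq-CNO and 58, 56.7 and 80.6 in Gq-Saline libraries, a log2 difference of -0.81 at an adjusted p of 0.99 by limma. Spred2 had the smallest unadjusted p of any member in these contrasts, in the olfactory bulb mCh sort, at 58.1, 63 and 299 normalised reads in Gq-CNO and 686, 765 and 97 in Gq-Saline libraries, but the groups overlapped and the adjusted p was 0.9 by limma. The members' median log2 difference was -0.01 in cortical and -0.17 in hippocampal astrocytes, beside 0.05 and -0.06 for all tested genes, and 0.64, 0.52 and 0.20 in the mCh sorts of olfactory bulb, cortex and hippocampus, beside 0.03, -0.06 and 0.01. The surrounding pathway gave no calls either: over the 5 fits, 0 genes passed among the 8 to 14 growth factor ligands tested of 23, the 16 to 21 receptor tyrosine kinases of 21, the 26 to 27 genes of the Ras-ERK cascade of 27, the 14 to 17 other inhibitors of 21, the 9 to 11 other ERK output genes of 16 and the 7 to 12 immediate early genes of 14.

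**Figure D4:**
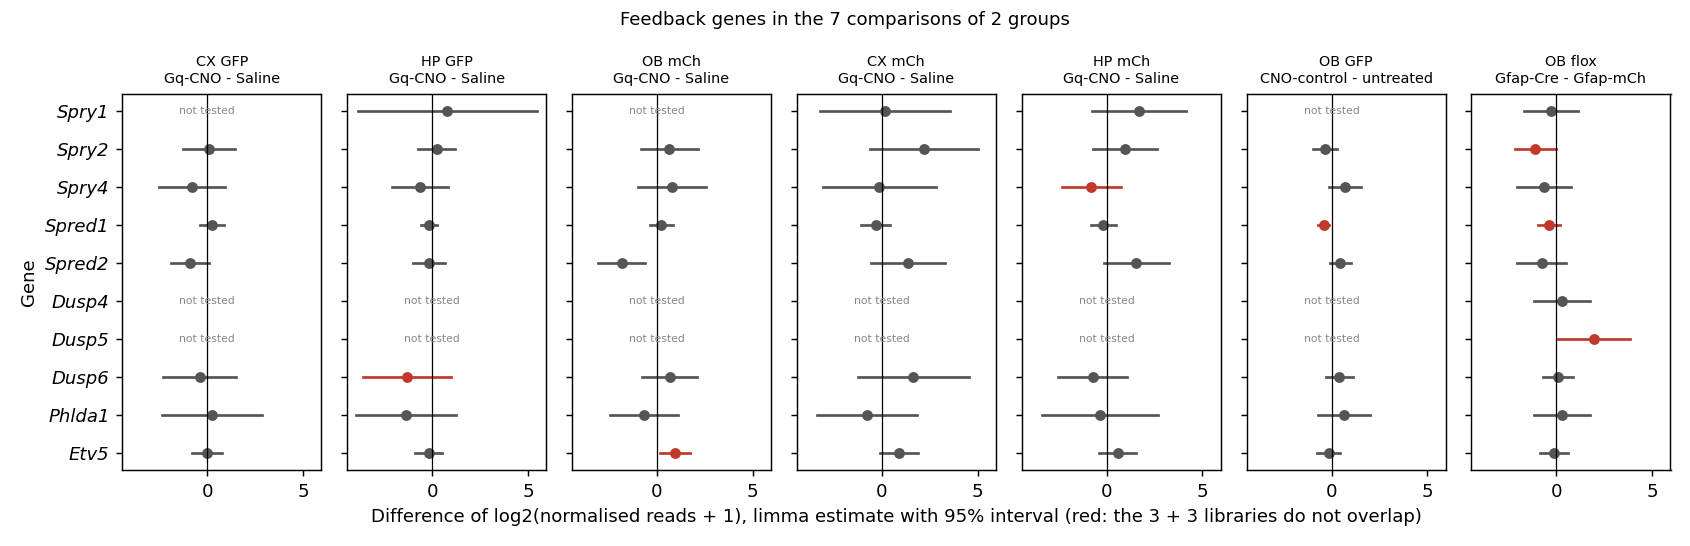
limma log2 difference with its 95% interval for each tested gene in the 7 comparisons of 2 groups, first group minus second; red marks genes whose 3 libraries a group do not overlap. Intervals cross 0 for nearly all genes, and the exceptions, among them Etv5 in the olfactory bulb mCh sort (0.96) and Spry2 in Gfap-Cre libraries (-1.11), had adjusted p-values above 0.05.

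CNO-control astrocytes of the olfactory bulb, set against untreated ones, had far more immediate early transcripts, while none of the 7 feedback genes tested was called. limma called 1332 of 10940 genes (12.2%), 579 higher and 753 lower in CNO-control libraries, and 0 of the 7 members tested. Without CNO-control replicate 1, 2 or 3 the count was 797, 551 or 526 genes. The 14 immediate early genes, transcription factors and others that ERK and calcium signals induce within minutes, summed to 797, 1212 and 1319 RPM in CNO-control and 142, 256 and 112 RPM in untreated libraries. Of their 12 tested genes 9 rose and none fell, with a median log2 difference of 2.77 beside 0.11 over all tested genes. Fos rose to 988 ± 267 normalised reads in CNO-control libraries, against 73.7 ± 35.1 in untreated ones (SD, n = 3 each), a log2 difference of 3.83 with a limma adjusted p of 0.000148. Egr1 rose to 1749 ± 412 normalised reads in CNO-control libraries, against 270.2 ± 128 in untreated ones, and Nr4a3 to 79.5 ± 6.17, against 7.7 ± 2.04.

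The tested feedback genes had smaller differences. Dusp6 had 130, 203 and 162 normalised reads in CNO-control and 103, 101 and 175 in untreated libraries, a log2 difference of 0.41 with a 95% interval from -0.31 to 1.13. Spry4 had 207, 133 and 165 normalised reads in CNO-control and 63.2, 96.3 and 173 in untreated libraries, a log2 difference of 0.70 ± 0.39 (SE). Spry2 had 195, 207 and 156 in CNO-control and 202, 185 and 335 in untreated libraries. Each of these genes overlapped between the groups, and for each the highest untreated value was that of replicate 3. That library stood apart, with 146 RPM of Ddx3y, against 0 RPM in the other 5 libraries. Xist was at 6.41 RPM in it, at 131 and 369 RPM in untreated replicates 1 and 2, and at 1740 to 2832 RPM in CNO-control libraries. The part of these differences in the result was not tested. Without untreated replicate 3, the log2 differences were 0.67 for Dusp6 (adjusted p = 0.184 by limma), 1.08 for Spry4 (adjusted p = 0.0689) and -0.07 for Spry2. Spred1 was the 1 of 7 members whose groups did not overlap, in a comparison where 32.9% of all tested genes did not: it had 2930, 2353 and 2281 normalised reads in CNO-control and 3181, 3135 and 3748 in untreated libraries, a log2 difference of -0.42 at an adjusted p of 0.0719 by limma. The call depended on the method, since DESeq2 on the recovered reads gave an adjusted p of 0.0404 and leaving out CNO-control replicate 1 gave 0.0407 by limma, within a range of 0.0404 to 0.281 over 12 alternatives. Astrocyte markers summed to 48352 to 55336 RPM in CNO-control and 56191 to 63435 RPM in untreated libraries, and their part in the Spred1 difference was not tested. Spry1, Dusp4 and Dusp5 did not pass the filter on low values and were not tested here. Dusp4, at low levels, had 1.66 to 3.92 RPM in CNO-control and 0 to 1.01 RPM in untreated libraries, without overlap. Spry1 and Dusp5 overlapped.

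**Figure D5:**
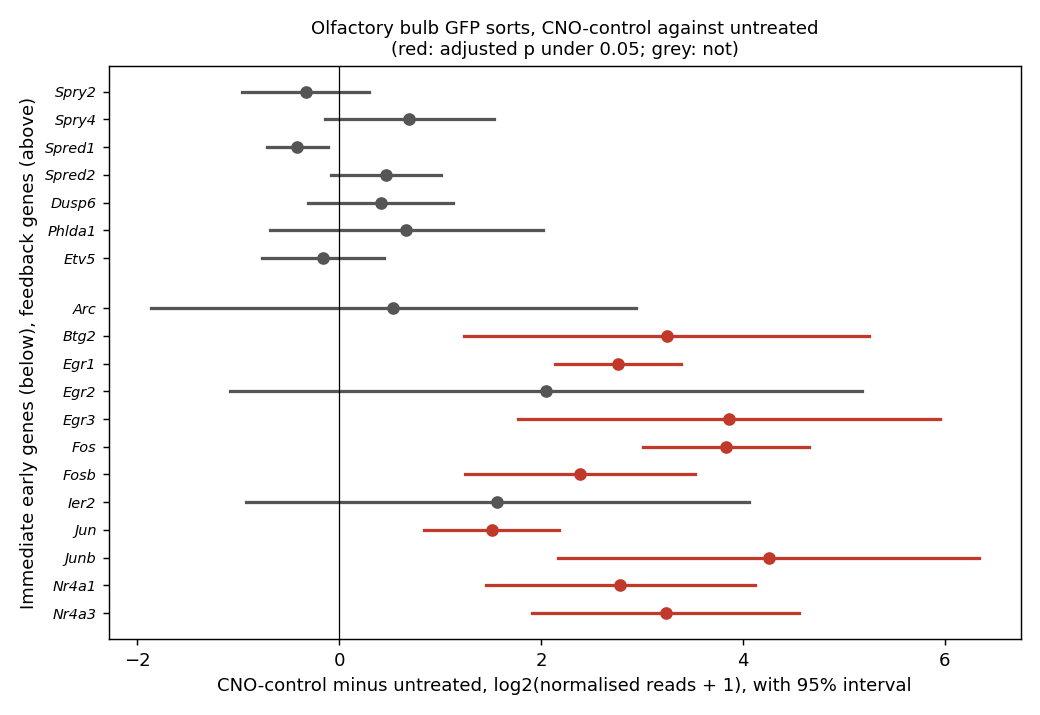
limma log2 difference with 95% interval of each tested immediate early gene and feedback gene, CNO-control minus untreated olfactory bulb astrocytes; red marks an adjusted p under 0.05. The 9 red immediate early genes lie to the right of 0, Fos at 3.83, and the 7 feedback genes lie between -0.42 and 0.70.

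Other parts of the pathway were mixed in the CNO-control comparison, in which 12.2% of all tested genes were called. Among receptor tyrosine kinases 3 of 21 tested rose, Mertk, a receptor for apoptotic cells, Erbb3 and Kit, and 2 fell, the microglial receptor Csf1r (86.1 ± 39.5 normalised reads in CNO-control and 557 ± 100 in untreated libraries) and Axl. Microglial markers, all 12 detected, summed to 113 to 192 RPM in CNO-control and 583 to 719 RPM in untreated libraries, and their part in these differences was not tested. Of 12 ligands tested, Csf1 and Igf1 rose (log2 differences of 1.75 and 1.20). Among 26 tested genes of the cascade 1 was called, the phosphatase Ptpn11, which fell by 1.04 on the log2 scale. Of 17 tested inhibitors 3 rose, among them Lrig2 (1.70) and the Ras GTPase-activating gene Rasa2 (0.83), with Errfi1 the third, and the ERK anchor Pea15a fell by 1.06 on the log2 scale. Of 9 tested other ERK output genes Elk3 fell.

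The Slc22a3-FF comparison asked what Gfap-Cre did against Gfap-mCh. Slc22a3 itself could not check the labels, since it had 12 reads in Gfap-Cre replicate 3 and 0 reads in the other 5 libraries. The Gfap-Cre and Gfap-mCh sorts differed in cell markers too: neuron markers summed to 395 to 1190 RPM in Gfap-Cre and 1415 to 4221 RPM in Gfap-mCh libraries, astrocyte markers to 1446 to 4936 and 5790 to 12189 RPM, and 8 oligodendrocyte precursor markers to 7.2 to 30.9 and 110 to 372 RPM. Their part in the results was not tested. limma called 341 of 13465 genes (2.53%), 184 higher and 157 lower in Gfap-Cre libraries, and 0 of the 10 members, all of which were tested. Each library moved that count, to 81, 81 or 1277 without Gfap-Cre replicate 1, 2 or 3, and to 149, 105 or 212 without Gfap-mCh replicate 1, 2 or 3.

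Of the 10, 3 separated between Gfap-Cre and Gfap-mCh, in a comparison where 22.7% of all tested genes did not overlap. Spry2 had 162, 86.1 and 220 normalised reads in Gfap-Cre and 305, 345 and 294 in Gfap-mCh libraries, a log2 difference of -1.11 with a limma p of 0.0457 and an adjusted p of 0.259, lower in every Gfap-Cre library. Dusp5 had 49.9, 55.7 and 80.5 normalised reads in Gfap-Cre and 14.6, 10.8 and 20.5 in Gfap-mCh libraries, a log2 difference of 1.96 with an adjusted p of 0.252 by limma. Spred1 had 2425, 2178 and 2560 in Gfap-Cre and 3159, 2828 and 3372 in Gfap-mCh libraries, a log2 difference of -0.39 beside a median of -0.10 over all tested genes. None of these 3 genes passed the adjusted threshold.

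Gfap-Cre replicate 3 stood apart for several members. Spry4 had 128, 86.1 and 579 normalised reads in Gfap-Cre and 381, 260 and 255 in Gfap-mCh libraries. Phlda1 had 172, 146 and 1060 in Gfap-Cre and 212, 243 and 291 in Gfap-mCh libraries, and Spred2 161, 184 and 839 in Gfap-Cre and 534, 572 and 416 in Gfap-mCh libraries. In each, replicates 1 and 2 of Gfap-Cre lay below all Gfap-mCh libraries and replicate 3 above them. Without replicate 3, Spred2 had a log2 difference of -1.54 at an adjusted p of 0.0379 by limma, within a range of 0.0379 to 0.838 over 12 alternatives, and Phlda1 changed sign to -0.64.

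The floxed sorts carried these genes at other levels than the GFP sorts, in tables normalised separately and so without a test. Dusp6 stood at 76.6 to 173 RPM in the 6 floxed libraries and 1.43 to 56.3 RPM in the 24 GFP libraries, without overlap. Dusp5 had 1.2 to 8.4 RPM in floxed and 0 to 2.36 RPM in GFP libraries, and Spry2 7.85 to 38.3 RPM in floxed and 31.8 to 206 RPM in GFP libraries. Immediate early genes summed to 5862 to 8438 RPM in the floxed libraries and 49.8 to 1640 RPM in the other 39 Gq and untreated libraries, with no library of either set in the range of the other. The 1640 RPM belong to the cortical Gq-Saline GFP library numbered 4, and the highest of the other 38 was 537 RPM. Between Gfap-Cre and Gfap-mCh, 3 of the 14 immediate early genes rose, Nr4a3 (log2 difference of 3.39), Egr3 (2.00) and Egr2 (1.44). Among the 21 receptor tyrosine kinases Axl rose (2.48), while Fgfr3, an astrocyte fibroblast growth factor receptor, fell to 22.6 ± 10.6 normalised reads in Gfap-Cre, against 347 ± 186 in Gfap-mCh libraries, and Ntrk2 fell by 1.99 on the log2 scale. Of 13 tested other ERK output genes Epha4 fell, and no ligand, cascade gene or other inhibitor was called.

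The mCh sorts of the 3 regions share 1 normalisation and were compared in 1 fit over 18 libraries, with treatments averaged. limma called 1060 of 12358 genes between olfactory bulb and cortex (8.58%), 483 between olfactory bulb and hippocampus (3.91%) and 48 between cortex and hippocampus (0.388%), and 0 of the 9 members tested in each. The first count was 669 without olfactory bulb Gq-CNO replicate 3, and the last lay between 15 and 28 without any 1 of 7 libraries, namely cortical Gq-CNO replicate 3 and Gq-Saline replicate 1, the 3 hippocampal Gq-CNO libraries and hippocampal Gq-Saline replicates 1 and 2. Dusp4, a nuclear phosphatase of ERK and related kinases, came closest. It had 0.901, 8.15 and 6.77 normalised reads in Gq-CNO and 4.17, 27.2 and 12.9 in Gq-Saline olfactory bulb libraries, and 0 in all 6 cortical libraries. Over the pooled libraries that is 108 of 23747179 reads for the olfactory bulb and 0 of 8498908 reads for the cortex, at least 12.9-fold higher against a floor of 3 reads over the cortical group, which covers counting error only. Of the 108 reads, 65 were in Gq-Saline replicate 2, and without that library the limit was 6.82-fold. In this fit Dusp4 passed the filter on low values only through olfactory bulb and hippocampal libraries. Its p-values and folds against the cortex are therefore given as descriptions. Its adjusted p was 0.0534 by limma, with 0.0311 to 0.135 over 24 alternatives. Under 3 of these it lay below 0.05, at 0.0311 without hippocampal Gq-Saline replicate 2 and 0.0482 without hippocampal Gq-CNO replicate 1. The third was 0.0479, by limma with libraries blocked by replicate number. In the hippocampus 4 of 6 libraries held from 0 to 5.89 normalised reads, 1 held 26.3 and 1 held 51. Pooled, the hippocampus had 199 of 29395246 reads, 144 of them in Gq-Saline replicate 2, and without that library it was at least 6.9-fold higher than the cortex against the same floor.

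Spry1, a feedback inhibitor with few reads in most sorts, averaged 4.71 ± 3.44 normalised reads in the olfactory bulb and 39 ± 53.4 in the cortex (SD, n = 6 each), a log2 difference of -1.88 at an adjusted p of 0.267 by limma. DESeq2 gave it an adjusted p of 0.0182, and 24 alternatives ranged from that to 0.57. Spry1 passed the filter on low values in this fit only through cortical and hippocampal libraries. Its p-values and differences against the olfactory bulb are therefore given as descriptions. Its highest single values in the mCh sorts were 220 normalised reads in 1 Gq-CNO hippocampal library and 143 in 1 Gq-Saline cortical library. Spred2 averaged 328 ± 321 normalised reads in the olfactory bulb and 89.7 ± 87.6 in the cortex, with an adjusted p of 0.126. Etv5 averaged 384 ± 218 normalised reads in the cortex and 189 ± 74.4 in the hippocampus, a log2 difference of 0.94 at an adjusted p of 0.265. The median difference of the members was 0.35, 0.14 and -0.21 in the 3 comparisons, beside 0.39, 0.14 and -0.20 for all tested genes.

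Receptor genes were called between the olfactory bulb and each of the other regions in the mCh sorts, and 0 of 21 between cortex and hippocampus. Of 21 receptor tyrosine kinases 8 were higher and 2 lower in olfactory bulb than in cortex, among them Axl (log2 difference of 2.53, higher) and the precursor-cell and microglial receptors Pdgfra (-1.21) and Csf1r (-0.995), and 7 were higher and 2 lower in olfactory bulb than in hippocampus, with Ntrk2 (1.07), Fgfr1 (1.86) and Csf1r (-0.79) leading, beside 8.58% and 3.91% called among all tested genes. Marker sums moved with region too. Microglial markers summed to 4985 to 10467 RPM in olfactory bulb, 10155 to 15638 RPM in cortical and 9130 to 15370 RPM in hippocampal mCh sorts, astrocyte markers to 7142 to 21138, 5067 to 9187 and 6035 to 10244 RPM, and oligodendrocyte precursor markers, of which Pdgfra is one, to 1097 to 1922, 1780 to 3045 and 1579 to 2983 RPM. The part of these markers was not tested. Lrig1, a receptor-degrading inhibitor, was higher in olfactory bulb than in cortex (4.49) and in hippocampus (3.10), and the adaptor Frs2 was lower in olfactory bulb than in hippocampus (-1.02). Against cortex, the olfactory bulb was also higher in the ligands Igf1 (3.28) and Fgf1 (1.27), in Dusp1 (3.43) and in 4 of 13 immediate early genes, Fos (4.34) and Npas4 (3.36) among them, and lower in Arc (-1.80). Between olfactory bulb and hippocampus 0 of 13 immediate early genes were called. Between cortex and hippocampus, Arc was higher (2.13) and Fos (-4.23) and Epha4 (-2.07) lower in cortex.

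Over the 24 GFP libraries, levels of 8 of the 10 genes were set against each other, leaving out Dusp4 and Dusp5, and Pearson's r over their 28 pairs ran from -0.43 (Spred1 with Spred2) to 0.64. These libraries come from 4 tables that differ in depth and treatment, so correlations of log2(RPM + 1) are given as descriptions. They include the Gq-CNO and Gq-Saline olfactory bulb libraries whose Spry2 level the choice used. The highest among pairs of members with reads in most libraries was between Spry4 and Dusp6, at Pearson's r = 0.64 and Spearman's rho = 0.57, while Spry2 had r = 0.00 with Spry4, -0.37 with Dusp6 and 0.02 with Etv5. Among 7745 genes, the patterns most like Spry2 were those of Paip2 (r = 0.67), Gtf2b (0.66) and Hpcal4 (0.64), and those most like Spry4 were Rictor (0.76), Mbnl2 (0.76) and Klf6 (0.73). Dusp6 was most like Ptgfrn (0.88), Cdh2 (0.86) and 1190002N15Rik (0.85), which dropped to 0.74, 0.68 and 0.69 without the 2 libraries farthest from the median. Etv5 was most like Atxn7l3b (0.79), Mrpl40 (0.78) and Ldha (0.71), which dropped to 0.63, 0.47 and 0.42.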

How the data were processed

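The submitters' processing notes name the build mm10, the aligner STAR 2.5.0a, the quality tools FastQC 0.11.7 and MultiQC 1.11, and DESeq2 1.30.1. Libraries were made from 10 ng of total RNA, per the labels' protocols. The gene counter and annotation are not given in the sources used here. The 6 deposited tables hold normalised signal values, which are the authors' gene read counts divided by 1 size factor per library, each table normalised separately. Reads were recovered by dividing by that step. Of the results, 100% were whole within a tolerance of 0.05. RPM is recovered reads per 1000000 reads in genes. The ribosomal entry Rn45s took 8 to 23.1% of reads and was kept.

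The members, gene lists and tests were chosen with earlier results of these data known. In R 4.3.3, limma 3.58.1 was fitted with a mean-variance trend to log2(value + 1), 2 groups at a time, except that the mCh regions shared 1 fit of 6 groups. A gene was tested where 3 or more libraries reached a value of 10, and calls were made at a Benjamini-Hochberg adjusted p under 0.05. The pseudocount shrinks differences of low genes. The fits were tested on simulated data with 1 fixed spread and large changes placed only in genes with more reads. That does not cover smaller changes, low genes or the spread of these libraries. Alternatives were edgeR 4.0.16 (quasi-likelihood), DESeq2 1.42.0, TMM scaling, a pseudocount of 5, no filter, a replicate block and leaving out each library. Named pathway genes were up to 3 per list and comparison with the smallest p among those called; Kit, Errfi1 and other names outside that rule were chosen after their values were seen. The titles call the floxed sorts mCh, whereas their columns name mCh for controls and RFP for Gfap-Cre. The 4 columns numbered 4 were placed by group only.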

Additional observations from a re-analysis of the deposited data

How the results depend on the processing

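Over 140 results and 2315 values under alternatives, 283 counts stayed within 1.5 times the reported count and 35 did not, and no called value reversed. Of 1328 member values under alternatives, 7 were called and 76 changed sign, none of them called. Of 669 values of other named genes, 85 no longer passed and 584 stayed. The labels do not say that replicate numbers mark shared animals. Same-numbered libraries did not all correlate above 0.1 in any of the 7 comparisons of 2 groups, with 0.087 to 0.132 in hippocampal astrocytes. Across the mCh regions within a treatment the range was -0.004 to 0.048 over 18 pairs. Whether the numbers mark shared animals stays unknown. The reported fits treat libraries as independent, with the replicate block as an alternative. As a hint from the data, every library correlated best with its own number in hippocampal astrocytes and the hippocampal mCh sort, as in 25 of 36 comparisons of an mCh library with another region, and the Gq-Saline libraries numbered 1 had 0 to 0.653 RPM of Ddx3y in each region.

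DESeq2 called 5 genes in hippocampal astrocytes and 2, 3 and 13 genes in the olfactory bulb, cortical and hippocampal mCh sorts for Gq-CNO against Gq-Saline, where limma called 0. In the cortical mCh sort, dropping the filter called 2 genes and 1 fit of all 18 libraries called 1. DESeq2 called 1154 genes for Gfap-Cre against Gfap-mCh and the replicate block 105, beside 341. Members called were 1 with DESeq2 for CNO-control, and 1 with DESeq2 (Spry1) and 1 with the replicate block (Dusp4, adjusted p = 0.0479) for olfactory bulb against cortex. There Spry1 passed the filter on low values only through cortical and hippocampal libraries, and Dusp4 only through olfactory bulb and hippocampal ones. Both are therefore given as descriptions. DESeq2 called 774 genes between olfactory bulb and hippocampus and 180 between cortex and hippocampus, and limma with no filter called 25 in the last. The cause was not tested. With the block, Spry2 differed by 0.09 in cortical and 0.24 in hippocampal astrocytes.

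Leaving out 1 library at a time gave 526 to 1614 genes for CNO-control, 81 to 1277 for Gfap-Cre, 669 to 1149 between olfactory bulb and cortex, 331 to 564 between olfactory bulb and hippocampus and 15 to 53 between cortex and hippocampus, with fewer samples in each fit. Members called ranged from 0 to 1 in the first 3 of these comparisons and stayed at 0 in the others. Between olfactory bulb and cortex the member was Dusp4, given there as a description. Depth limits Dusp4, Dusp5 and Spry1 most, which had 0 to a few reads in many libraries.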
